A study of Homo sapiens with 8 samples.

Results

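Interferon-stimulated genes were followed through 8 cultures of 5 human intestinal cell lines. The set held 45 gene symbols, all of which were rows of the 54261-gene count table. It was drawn up by name from the known targets and components of the interferon response, together with the receptor chains IFNAR1 and IFNGR1. Earlier results of these data were known when it was chosen. NCM460 and HIEC6 carry the label of normal intestinal epithelium, and the colorectal carcinoma (CRC) lines were DLD1, HCT116 and HCT8. Each line was grown in DMEM with fetal bovine serum and taken at passage 5, and each gave 1 library of total RNA without treatment. DLD1, HCT116 and HCT8 gave 1 more library each after hypoxia, whose oxygen level and duration are not given in the sources used here. No culture is labelled as treated with an interferon or infected with a virus. Whether the values are a resting level of these genes was not tested. The replicates of a group were different lines, and in comparisons of groups p-values measure the spread between these libraries. Where a fit held line as a term, each CRC line gave 1 untreated and 1 hypoxia library. The p-values of such a fit measure the spread between the lines' responses to treatment. The untreated and hypoxia libraries of a line are not separate lines.

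Type I interferons bind a receptor made of IFNAR1 and IFNAR2, type II interferon binds IFNGR1 and IFNGR2, and both act through JAK kinases. After type I interferon, a complex that holds STAT2 and IRF9 binds the interferon-stimulated response element (ISRE) in the promoters of the target genes, while type II interferon acts mainly at the gamma-activated site. Many cells keep a low, constant activity of this pathway without infection, termed tonic interferon signalling, and in the gut epithelium type I and type III interferons protect against viruses.

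Total counts lay between 45519306 and 57374239 per library, and values are given as CPM (counts scaled to a column total of 1000000). The floor was set at 3 counts, or 0.0523 to 0.0659 CPM, and covers counting error only. Between 39 and 44 of the 45 genes lay above it in each library. HIEC6, labelled epithelial, held 243272 counts of KRT8 but 10 of EPCAM and 56 of KRT19, and 69375 of VIM, while the other 7 libraries held at least 10969 counts of EPCAM and at most 1142 of VIM. VIM does not stand for the whole list of 9 fibroblast or mesenchymal markers. Of these, 4 were at 1 CPM or more in HIEC6, against 2 to 6 in the other libraries. The label of the RNA extraction names prefrontal cortex. Of 7 cortex markers, NEUROD6 was at 0 in every library, and only SYT1 was abundant, with 6693 and 8828 counts in HCT116 and 3383 in NCM460. Of the immune markers, PTPRC held at most 6 counts and CD3E and TYROBP at most 1, while CD68 held 60 to 1142, CD14 2 to 153 and LYZ 0 to 57, and the summed level of the list lay between 2.98 and 21.5 CPM. The library labelled NCM460 correlated across all genes at 0.994 with untreated HCT116 and at 0.924 with HIEC6, the other line of its group, so values that rest on it are given with and without it. These values describe the libraries, since genes are no replicates.

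The letters of the ISRE core, GAAA followed after any 2 bases by GAAA, were searched on both strands in the RefSeq promoters (GRCh38.p14, 250 bases before to 50 after the start), which covered 37 of the 45 genes. They were found in 24 of these 37 genes (64.9%) and in 3.57% of all 35116 promoters. Here and for the other letters below, a gene was counted if any of its promoters held a match. The share over all promoters counts single promoters, so it is not counted alike and tends to be smaller. Windows of 30 bases, 1 per gene, are shown for the genes that hold a match and whose difference between lines, given below, held in all 11 alternative analyses, and for ISG15 and BST2, with the match in capitals, read 5′ to 3′ on the strand of the match.
PARP9 and DTX3L (shared, chr3:122564322-122564351, plus strand): ccagggaagcGAAACTGAAActttgcgccc
PARP14 (chr3:122680800-122680829, plus strand): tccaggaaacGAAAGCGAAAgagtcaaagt
OAS3 (chr12:112938321-112938350, plus strand): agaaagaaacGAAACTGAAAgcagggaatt
MX1 (chr21:41420559-41420588, plus strand): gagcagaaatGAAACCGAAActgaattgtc
IFI6 (chr1:27672329-27672358, minus strand): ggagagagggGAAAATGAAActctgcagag
ISG15 (chr1:1013380-1013409, plus strand): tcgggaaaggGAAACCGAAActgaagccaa
HERC5 (chr4:88456984-88457013, minus strand): aatcgaaaagGAAAAGGAAActgtaatgag
BST2 (chr19:17405741-17405770, minus strand): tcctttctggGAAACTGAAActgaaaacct
PARP9 and DTX3L start from opposite strands around 1 window, so the same 10 letters belong to both promoters. OAS1 and HERC6 had a promoter in the table without these letters, and for USP18 no promoter was matched. The letters of the gamma-activated site, TTCNNNGAA, were found in 11 of the 37 genes (29.7%, against 7.66% of all promoters), and those of the hypoxia response element, ACGTG, in 8 (21.6%, against 21.4%). A match describes the letters and is not evidence of binding.

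The level differed mainly by line. The mean of log2(CPM + 1) over the 45 genes was 3.80 in HIEC6, 3.63 and 3.62 in DLD1 (here and below untreated first, then hypoxia), 3.49 and 3.43 in HCT8, 3.05 in NCM460, and 3.001 and 2.66 in HCT116. DLD1 and HCT8 were thus close to each other, and both HCT116 libraries were the lowest of the 8, with NCM460 next to them. This order is a description, with no test. With TMM scaling of library sizes the values were 2.99 and 2.89 in HCT116, still the lowest, and 3.58 and 3.59 in DLD1. The step within HCT116 thus depended on the scaling. Levels per kilobase of exon allow a rough comparison between genes. The length took in every annotated exon of a gene, so genes with many such exons rank lower, and DDX58 had no length. On this scale the top 3 genes in untreated DLD1, HCT116 and NCM460 were LGALS3BP, ISG15 and IFITM3. LGALS3BP is a secreted glycoprotein, ISG15 a ubiquitin-like modifier and IFITM3 a membrane protein that blocks virus entry. In HIEC6 the first was BST2, at 204.0 CPM per kilobase, followed by LGALS3BP at 116.0 and IFITM3 at 101.0.

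**Figure D1:**
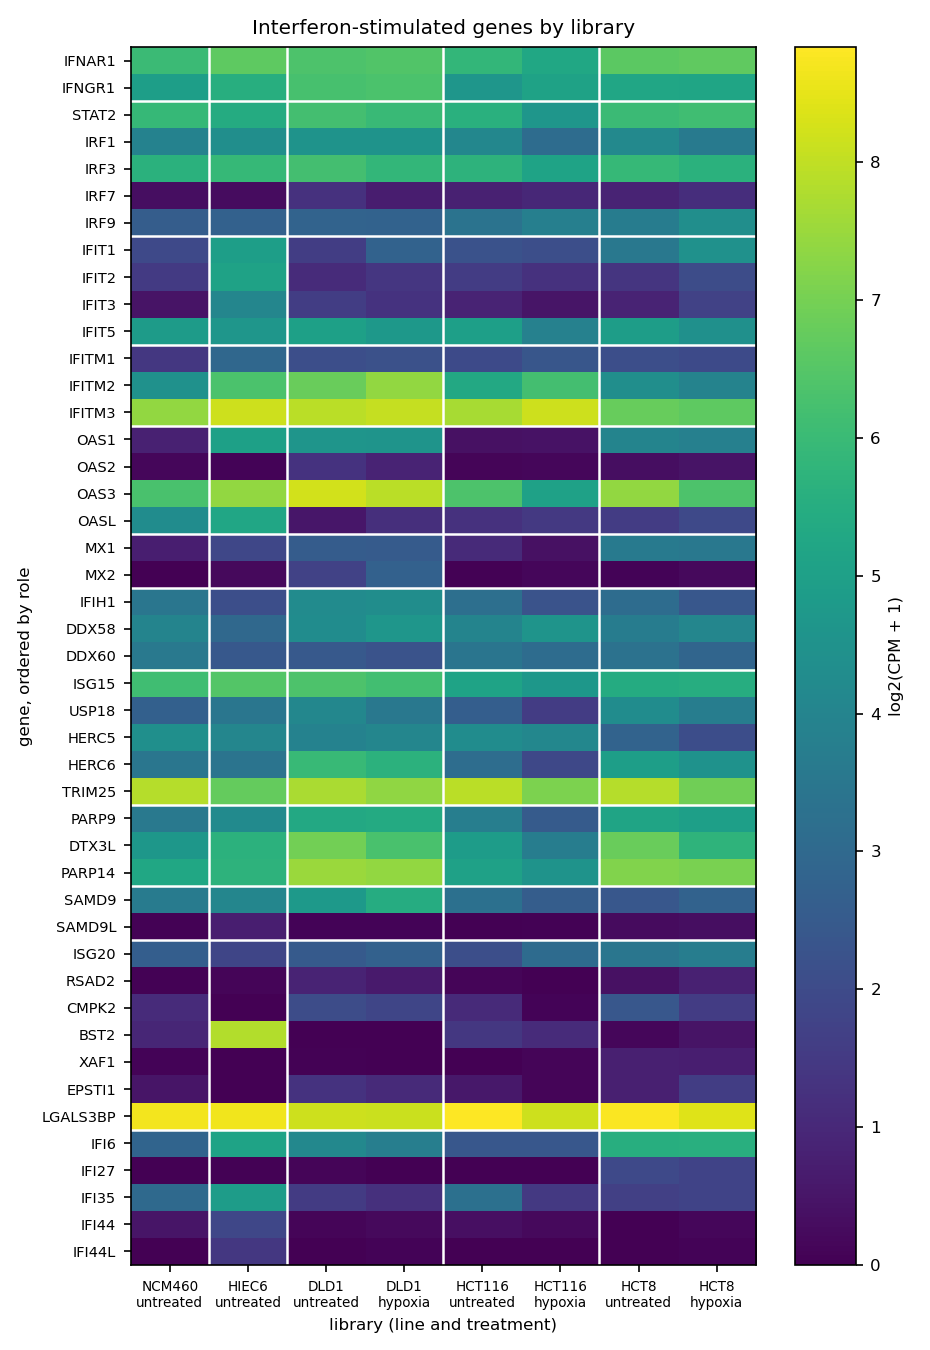
Level of the 45 genes, as log2(CPM + 1) in colour, in each of the 8 libraries (columns, by line and treatment), with genes in rows ordered by role and white lines between the groups. LGALS3BP and IFITM3 are high in every column, BST2 stands out in HIEC6 at 224 CPM, and PARP14 and HERC6 are brighter in the 4 columns of DLD1 and HCT8 than in those of HCT116 and NCM460.

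Of the interferons themselves, IFNA1, IFNB1, IFNG, IFNK, IFNL2 and IFNW1 were at 0 counts in all 8 libraries, and IFNL1 and IFNL3 reached at most 2 counts. A count of 0 allows up to 3 counts, or 0.0659 CPM in the shallowest library. IFNE, the interferon of mucosal epithelium, held 1 to 29 counts. The receptor chains and the factors, in contrast, were read in every library. IFNAR1 was at 80.7 and 86.2 CPM in DLD1, 97.1 and 101 in HCT8, 56.6 and 37.0 in HCT116, 64.0 in NCM460 and 99.3 in HIEC6. IFNGR1, the ligand-binding chain of the type II receptor, was at 75.7 and 80.6 CPM in DLD1, 36.6 and 35.3 in HCT8, 23.9 and 33.1 in HCT116, 29.9 in NCM460 and 46.0 in HIEC6. IFNAR1 was thus lowest in HCT116, and IFNGR1 stood highest in DLD1.

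STAT2, the STAT of type I signalling, was at 71.6 and 61.8 CPM in DLD1, 64.0 and 69.5 in HCT8, 47.5 and 24.1 in HCT116, 60 in NCM460 and 42.0 in HIEC6. IRF3, which induces interferon once sensors of viral RNA or DNA are triggered, was at 72.7 and 57 CPM in DLD1, 59.9 and 48.7 in HCT8, 51.4 and 34.3 in HCT116, 48.5 in NCM460 and 60 in HIEC6. IRF1, the factor of the type II response, was at 22 and 22.2 CPM in DLD1, 17 and 11.6 in HCT8, 16.1 and 7.64 in HCT116, 14.2 in NCM460 and 19.7 in HIEC6. These 3 factors had their lowest CRC value in the same library. IRF9, the DNA-binding partner of STAT2, had another order, with 5.97 and 5.94 CPM in DLD1, 12.1 and 19.4 in HCT8, 9.19 and 13.1 in HCT116, 5.10 in NCM460 and 5.75 in HIEC6. IRF7, which amplifies the interferon response, was low throughout, at 1.39 and 0.645 CPM in DLD1, 0.855 and 1.21 in HCT8, 0.766 and 0.993 in HCT116, 0.264 in NCM460 and 0.212 in HIEC6.

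HCT116 was then compared with the mean of DLD1 and HCT8 in a model of line and treatment over the 6 CRC libraries, to ask whether the genes of the response differ in level between CRC lines. Of the 43 genes past the filter on low counts (IFI44 and IFI44L were not), 16 (37.2%) were lower in HCT116 and 4 (9.3%) were higher at an adjusted p-value under 0.05 (edgeR's quasi-likelihood test, Benjamini-Hochberg). Of all 21045 genes tested, 14.4% were lower and 18.4% higher. The set, like the pathway lists below, was chosen with earlier results of these data known, so these shares are no independent test of it. The median log2 fold change was -0.68 over the 43 genes and -0.02 over all genes. The lower genes were spread over the OAS and MX families, the ISG15 system, the PARP9 complex, the receptors and the IFI genes, while the IFIT family (0 of 4 lower), the IFITM family (0 of 3), the RNA sensors and helicases (0 of 3) and the SAMD9 pair had none. Both HCT116 libraries lay below all 4 libraries of DLD1 and HCT8 for 18 of the 43 genes, against 25.4% of all genes, and above them for 2 (BST2 and HERC5), against 14.1%. This count used CPM by column total and was not repeated with another scaling. On that scale the median log2 ratio of all genes in HCT116, hypoxia over untreated, was -0.364. In bulk RNA, fewer cells that express a gene and less RNA per cell cannot be told apart.

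OAS1, an oligoadenylate synthetase that activates RNase L on viral double-stranded RNA, showed the largest decrease. It was at 23.5 and 22.6 CPM in DLD1, 14.8 and 13.5 in HCT8, and 0.325 and 0.361 in HCT116. The log2 fold change of HCT116 was -5.41 (SE 0.36, edgeR adjusted p = 1.73e-05). NCM460 was at 0.752 CPM, 2.31-fold above untreated HCT116 (interval for counting error 1.27 to 4.38) but far below DLD1 and HCT8. HIEC6 was at 31.3, above every other library. OAS1 lies on chromosome 12 from 113343661 to 113371024 (GRCh37, plus strand), 4832 bases before OAS3. OAS3, the largest of the synthetases, was at 301 and 243 CPM in DLD1, 167 and 82.5 in HCT8, 82.2 and 32.0 in HCT116, 77.2 in NCM460 and 169 in HIEC6. Its change was smaller than that of its neighbour, at -1.51 (SE 0.23, edgeR adjusted p = 0.00171), and untreated HCT116 lay only just below HCT8 under hypoxia. OAS2, between 0.0529 and 1.44 CPM, did not pass (-2.08, SE 0.78, edgeR adjusted p = 0.0735). OASL, a relative that lacks the enzyme's activity, did not pass either (0.49, SE 0.45, edgeR adjusted p = 0.436). OAS2 held 5 and 7 counts in HCT116, below all 4 libraries of DLD1 and HCT8, so its missed threshold does not show an unchanged level. The changes of OAS1, OAS2 and OAS3 were thus below 0 and unlike in size, and that of OASL alone was above 0.

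PARP9, DTX3L and PARP14 are ADP-ribosyltransferases and a ubiquitin ligase that take part in the interferon response, and all 3 were lower in HCT116. PARP14 was at 180 and 170 CPM in DLD1, 142 and 132 in HCT8, and 32.3 and 22.2 in HCT116, a log2 fold change of -2.24 (SE 0.20, edgeR adjusted p = 7.95e-05). DTX3L, the ligase, was at 123 and 77 CPM in DLD1, 112 and 52.3 in HCT8, and 28.8 and 12.5 in HCT116 (-1.89, SE 0.21, edgeR adjusted p = 0.000281). PARP9, its partner, was at 39.0 and 41.4 CPM in DLD1, 35 and 30.6 in HCT8, and 12.8 and 4.87 in HCT116 (-1.87, SE 0.30, edgeR adjusted p = 0.00202). The HCT116 values of these genes lay below every DLD1 and HCT8 value. NCM460 held 37.7, 24.8 and 11.0 CPM of PARP14, DTX3L and PARP9, close to untreated HCT116, and HIEC6 held 51.2, 50.3 and 17.6. The 3 genes share a region of chromosome 3 (GRCh37, PARP9 from 122246771 to 122283424 on the minus strand, DTX3L from 122283185 to 122294050 and PARP14 from 122399686 to 122449687 on the plus strand). PARP9 and DTX3L overlap on opposite strands, and whether the counting used strand is not given in the sources used here, so reads there could be assigned to either gene.

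**Figure D2:**
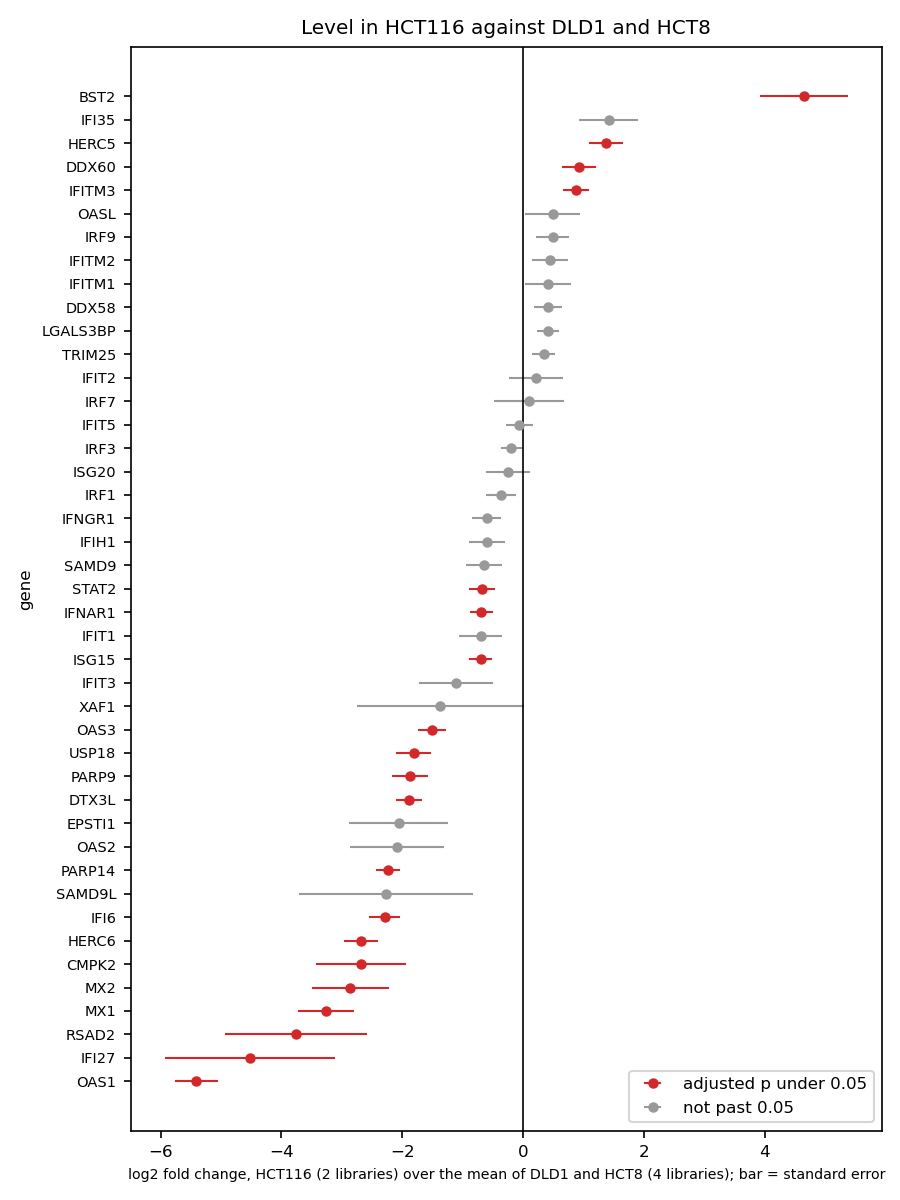
Log2 fold change of HCT116 (2 libraries) over the mean of DLD1 and HCT8 (4 libraries) for the 43 tested genes, with bars for the standard error, red where the adjusted p-value was under 0.05 and grey otherwise. OAS1 lies lowest at -5.41, BST2 highest at 4.65, and 16 red points lie left of 0 against 4 on the right.

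In the ISG15 system, 3 of 5 genes were lower (14.4% of all genes) and 1 was higher (18.4%). HERC6, a relative of the ISG15 ligase HERC5, was at 60.7 and 50.4 CPM in DLD1, 30.3 and 21.6 in HCT8, 7.91 and 2.80 in HCT116, 10.0 in NCM460 and 9.56 in HIEC6, with a log2 fold change of -2.68 for HCT116 (SE 0.28, edgeR adjusted p = 0.000211). USP18, which removes ISG15 from proteins and dampens IFNAR signalling, was at 16 and 10.5 CPM in DLD1, 18.8 and 12.4 in HCT8, 5.28 and 2.0 in HCT116, 5.61 in NCM460 and 10.1 in HIEC6 (-1.81, SE 0.29, edgeR adjusted p = 0.00201). Both were lower in each HCT116 library than in any library of DLD1 or HCT8. HERC5 went the other way, at 14.0 and 15.8 CPM in DLD1, 6.0 and 3.25 in HCT8, 18.7 and 16.1 in HCT116, 20 in NCM460 and 15.6 in HIEC6 (1.37, SE 0.28, edgeR adjusted p = 0.00749). It was low in HCT8 rather than high in HCT116, and it starts only 14021 bases after HERC6 ends on chromosome 4 (GRCh37). ISG15 was at 80.8 and 70.3 CPM in DLD1, 42.6 and 44.5 in HCT8, 33.6 and 24.5 in HCT116, 68.6 in NCM460 and 87.9 in HIEC6 (-0.70, SE 0.19, edgeR adjusted p = 0.0237). TRIM25, the ligase that activates the RNA sensor RIG-I, was at 107 to 244 CPM in all libraries and did not pass (0.34, SE 0.19, edgeR adjusted p = 0.209).

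MX1, a GTPase that blocks influenza and other viruses, was at 4.94 and 4.86 CPM in DLD1, 11.5 and 10.5 in HCT8, 1.05 and 0.325 in HCT116, 0.671 in NCM460 and 2.68 in HIEC6 (-3.26, SE 0.46, edgeR adjusted p = 0.00103). IFI6, a mitochondrial and endoplasmic reticulum protein that restricts flaviviruses, was at 16.4 and 12.8 CPM in DLD1, 45.8 and 46.8 in HCT8, 4.27 and 4.33 in HCT116, 6.16 in NCM460 and 33.8 in HIEC6 (-2.29, SE 0.26, edgeR adjusted p = 0.000366). Both genes were highest in HCT8 and lowest in HCT116 among the CRC lines. MX2, which acts on retroviruses, was at 2.34 and 5.70 CPM in DLD1 but at 0.057 and 0.176 in HCT8, 0.0383 and 0.108 in HCT116, 0 in NCM460 and 0.176 in HIEC6. IFI27, another mitochondrial protein, held 152 and 112 counts in HCT8, 4 and 0 in DLD1, 0 and 1 in HCT116, 0 in NCM460 and 2 in HIEC6. The calls of MX2 (-2.86, SE 0.64, edgeR adjusted p = 0.0101) and IFI27 (-4.52, SE 1.41, edgeR adjusted p = 0.0397) thus rested on 1 line each, DLD1 and HCT8. CMPK2, a mitochondrial nucleotide kinase, and RSAD2 (viperin), which makes a chain-terminating nucleotide, are neighbours that overlap on opposite strands of chromosome 2. CMPK2 was at 3.14 and 2.56 CPM in DLD1, 4.27 and 1.98 in HCT8, 1.07 and 0.0542 in HCT116, 1.14 in NCM460 and 0 in HIEC6 (-2.68, SE 0.75, edgeR adjusted p = 0.0262). RSAD2 stayed under 1 CPM everywhere, with 42 and 33 counts in DLD1, 17 and 34 in HCT8, 4 and 0 in HCT116, 2 in NCM460 and 5 in HIEC6 (-3.76, SE 1.17, edgeR adjusted p = 0.0393).

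The other lower genes had small changes, IFNAR1 with -0.69 (SE 0.19, edgeR adjusted p = 0.0256) and STAT2 with -0.68 (SE 0.22, edgeR adjusted p = 0.0466). Of the higher genes, BST2 (tetherin, which holds budding virus at the cell surface) was at 88 and 63 counts in HCT116, 1 and 1 in DLD1 and 6 and 18 in HCT8, a log2 fold change of 4.65 (SE 0.73, edgeR adjusted p = 0.0019). The level of BST2 in HCT116, 1.68 and 1.14 CPM, was still low beside the 224 CPM of HIEC6. IFITM3 was at 204 and 284 CPM in HCT116, 240 and 267 in DLD1, 109 and 98.1 in HCT8, 167 in NCM460 and 289 in HIEC6 (0.88, SE 0.22, edgeR adjusted p = 0.0179). DDX60, a helicase that assists RNA sensing, was at 9.76 and 7.78 CPM in HCT116, 4.59 and 3.75 in DLD1, 9.17 and 6.37 in HCT8, 10.9 in NCM460 and 4.36 in HIEC6 (0.93, SE 0.28, edgeR adjusted p = 0.0375). In the contrasts with single lines, IFITM3 and HERC5 passed the test only against HCT8 and DDX60 only against DLD1. Of the lower genes, ISG15, RSAD2 and MX2 passed only against DLD1, IFNAR1 and IFI27 only against HCT8, and STAT2 against neither. The calls of 9 lower genes (DTX3L, HERC6, IFI6, MX1, OAS1, OAS3, PARP14, PARP9 and USP18) and 1 higher gene (HERC5) held in all 11 alternative analyses. The other 10 were lost in at least 1 of them, BST2 only where 10 counts were required in every library. The share of all called genes that held likewise was not determined, so these calls cannot be ranked against other genes.

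**Figure D3:**
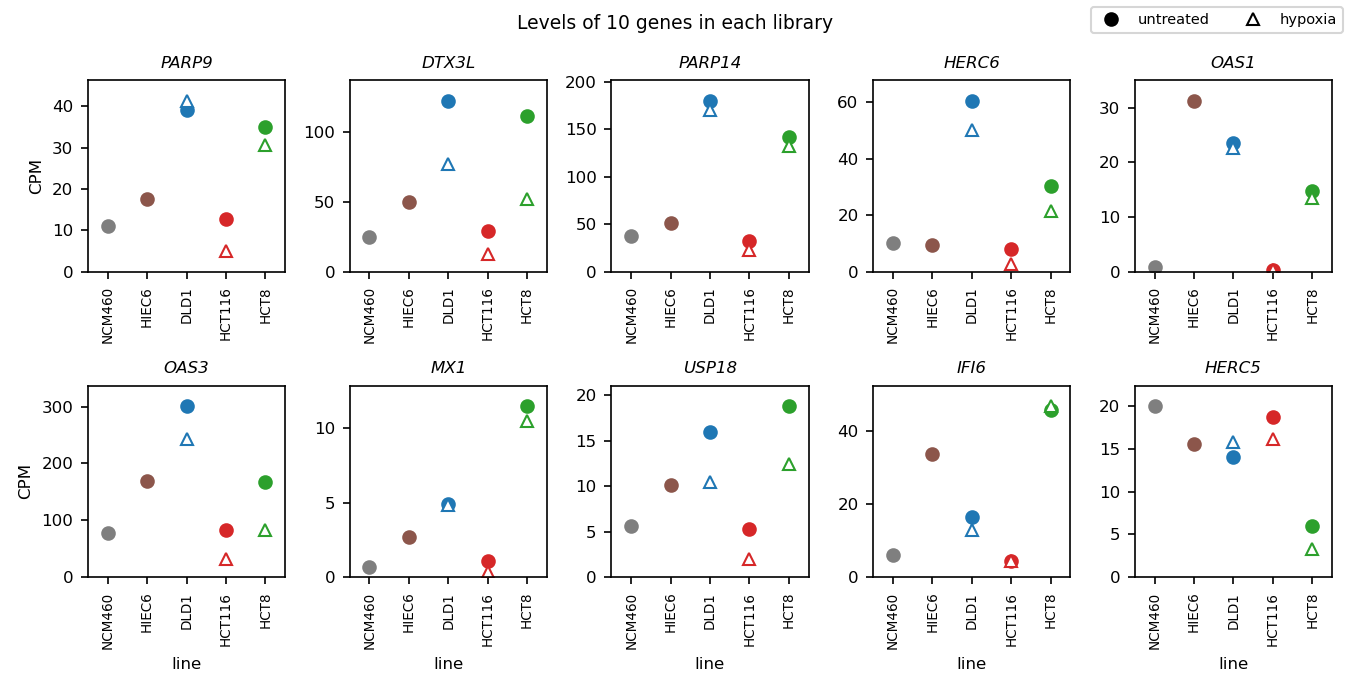
CPM of the 10 genes called in all 11 alternative analyses, in each library, by line on the x axis, with filled circles for untreated and open triangles for hypoxia cultures, and each y axis starting at 0. For the first 9 genes both HCT116 symbols lie under those of DLD1 and HCT8, and for HERC5 they lie above them.

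The NCM460 library took no part in that model. It lay below all 4 libraries of DLD1 and HCT8 for 14 of the 16 genes lower in HCT116, and above them for 3 of the 4 higher ones. Over all genes called lower or higher in HCT116 the shares were 87.2% and 74.4%, so this placement was not particular to the interferon genes. The corresponding counts for HIEC6 were 9 of 16 (60.3% of all genes) and 2 of 4 (32.4%). Of the 39 interferon genes above the floor in NCM460 or untreated HCT116 and past the filter, 34 differed between these libraries by less than 2-fold, with 17.7% of all genes further apart. OASL was the largest exception, at 18.7 CPM in NCM460 and 1.42 in HCT116. OAS1 and ISG15 were also more than 2-fold higher in NCM460, and IRF7 and IFIT3 more than 2-fold lower.

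DLD1 and HCT8 also differed from each other. Against DLD1, 10 of the 43 genes were lower in HCT8 and 4 were higher (edgeR, adjusted p under 0.05), with 6.86% and 8.8% of all genes. SAMD9, a restriction factor of poxviruses, was at 26.8 and 43.0 CPM in DLD1, 4.25 and 5.93 in HCT8, 8.67 and 5.11 in HCT116, 11.9 in NCM460 and 15.5 in HIEC6 (-2.92 for HCT8, SE 0.35, edgeR adjusted p = 0.00115). IFITM2 was at 112 and 169 CPM in DLD1, 19.6 and 14.6 in HCT8, 39.7 and 71.8 in HCT116, 20.9 in NCM460 and 79.3 in HIEC6 (-3.12, SE 0.38, edgeR adjusted p = 0.00127). SAMD9 was highest in DLD1, and IFITM2 differed between all 3 lines, with HCT8 lowest (HCT116 over HCT8 2.01, SE 0.37, edgeR adjusted p = 0.0055). IFITM3 was lower in HCT8 as well (-1.43, SE 0.27, edgeR adjusted p = 0.0103), while IFITM1, at 3.34 and 3.54 CPM in DLD1, 3.38 and 2.92 in HCT8, 2.97 and 4.21 in HCT116, 1.71 in NCM460 and 6.65 in HIEC6, did not pass (-0.26, SE 0.44, edgeR adjusted p = 0.741). The 3 IFITM genes lie side by side on chromosome 11 and are alike in sequence, and how reads with several matches were counted is not given in the sources used here, so their shares are uncertain. MX2, OAS3, HERC5, IFIH1, IFNGR1, HERC6 and ISG15 completed the genes lower in HCT8. IFIH1, the RNA sensor MDA5, was at 18.2 and 18.9 CPM in DLD1, 7.82 and 4.28 in HCT8, 8.36 and 3.75 in HCT116, 10.2 in NCM460 and 3.39 in HIEC6. The higher ones were IFI6 (1.51, SE 0.27, edgeR adjusted p = 0.00853), IFI27, IFIT1 and IRF9. IFIT1, which binds viral RNA lacking a cellular cap, was at 10.5 and 21.1 CPM in HCT8, 2.01 and 5.79 in DLD1 and 3.73 and 3.32 in HCT116 (1.93, SE 0.41, edgeR adjusted p = 0.0172), and IRF9 differed by 1.19 (SE 0.33, edgeR adjusted p = 0.0433). Against DLD1 alone, HCT116 had 18 lower genes (15.1% of all genes were lower) and 3 higher (16.9%). Against HCT8 alone it had 13 lower (13.1%) and 4 higher (13.9%).

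Among 58 further genes of the pathway, 36 passed the filter, and in HCT116 against DLD1 and HCT8 8 were lower and 3 higher, where 14.4% and 18.4% of all genes were. None of the 7 other receptor chains and kinases was among them. Of the 9 tested sensors and adaptors 4 were lower (14.4% of all genes), among them the DNA sensor cGAS (listed as MB21D1) with 179 and 176 counts in DLD1, 335 and 154 in HCT8, 2 and 3 in HCT116 and 0 in NCM460, but 1971 in HIEC6 (-6.05, SE 0.66, edgeR adjusted p = 0.000263). GBP3, a guanylate-binding protein, held 707 and 707 counts in DLD1, 357 and 410 in HCT8 and 9 and 4 in HCT116 (-6.10, SE 0.49, edgeR adjusted p = 4.79e-05). SOCS3, an inhibitor of JAK and STAT signalling, was higher, with 1688 and 2440 counts in HCT116, 21 and 17 in DLD1 and 153 and 122 in HCT8 (5.57, SE 0.30, edgeR adjusted p = 7.56e-06), and so were B2M (1.95, SE 0.23, edgeR adjusted p = 0.000422) and PTPN6 (0.63, SE 0.20, edgeR adjusted p = 0.0413). HLA-B was lower (-3.53, SE 0.25, edgeR adjusted p = 2.42e-05), but TAP1, PSMB8 and PSMB9 were at 0 in every library. In the region of the major histocompatibility complex on chromosome 6, 111 of 162 protein-coding genes (68.5%) held at most 3 counts in all libraries, against 13.9% on the rest of the chromosome, so counts of genes in this region, HLA-B included, may be incomplete.

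Hypoxia was then compared with no treatment in the 3 CRC lines. The label was checked on 6 hypoxia-induced genes. CA9 went from 1 to 242 counts in DLD1, from 6 to 1039 in HCT116 and from 4 to 178 in HCT8. None of the 43 interferon-stimulated genes passed edgeR's test. Without a block for line, 0 of 43 had an adjusted p-value under 0.05 in edgeR's test (0.0% of all genes), 0 had an unadjusted p-value under 0.05 (2.88% of all genes), and the median log2 fold change was -0.02 against 0.06 over all genes. The coefficient of variation between libraries was 0.876 without and 0.295 with line as a block, and with the block the test called 200 genes of 21045 (0.95%), again 0 of the 43. In that fit 9 of the 43 had an unadjusted p-value under 0.05 in edgeR's test, against 18.5% of all genes, and DESeq2 with the same block called 2 of the 43, DTX3L and OAS3, both lower, against 7.92% of all genes. The untreated and hypoxia libraries shared no run label, so run and treatment cannot be told apart.

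DTX3L came closest, going from 123 to 77 CPM in DLD1, from 28.8 to 12.5 in HCT116 and from 112 to 52.3 in HCT8. Its value was lower under hypoxia in 3 of 3 lines (log2 fold change with the line block -0.86, SE 0.18, edgeR adjusted p = 0.0766). OAS3 was also lower in 3 of 3 lines, from 301 to 243, from 82.2 to 32.0 and from 167 to 82.5 CPM (-0.76, SE 0.21, edgeR adjusted p = 0.118). The next genes by p-value had adjusted values of at least 0.167. TRIM25 was at 207, 244 and 228 CPM untreated and at 163, 135 and 120 under hypoxia, with 228 in NCM460 and 107 in HIEC6 (-0.57, SE 0.19). IFIT5, at 31.8, 31.1 and 29.1 CPM untreated and 25.5, 13.7 and 20.7 under hypoxia, was lower in every pair too (-0.53, SE 0.20, edgeR adjusted p = 0.221). USP18 (-0.73, SE 0.25) and HERC6 (-0.60, SE 0.23) were also lower in every pair. DDX58, the RNA sensor RIG-I, was higher in every pair, at 18.5, 14.8 and 12 CPM untreated and 24, 22.9 and 15.5 under hypoxia, with 15 in NCM460 and 6.98 in HIEC6 (0.59, SE 0.22, edgeR adjusted p = 0.212). MX2 (1.48, SE 0.52) was higher in every pair as well, but from 2 and 3 counts in HCT116 and HCT8. IFIT1 had higher values in DLD1 and HCT8 and a slightly lower one in HCT116 (0.92, SE 0.33, edgeR adjusted p = 0.2). When the HCT116 pair was left out, edgeR's test with the block called IFIT1 higher and DTX3L lower (2 of 42, against 3.78% of all genes).

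Within each pair there was 1 library a side, so ratios are given with exact 95% intervals for counting error only and with no test. In DLD1, 3 of 40 genes were more than 2-fold higher under hypoxia (10.5% of all genes) and 1 was lower (5.89%). IFIT1 was 2.88-fold higher (interval 2.30 to 3.62), OASL 2.87-fold (1.78 to 4.81) and MX2 2.43-fold (1.97 to 3.02), and IRF7 was at 0.465 of its untreated level (0.304 to 0.702). In HCT8, 7 of 43 were higher (13.4%) and 3 lower (9.5%). The higher genes included IFIT3 (2.76-fold, 1.92 to 4.02), EPSTI1 (2.91-fold, 1.97 to 4.38) and IFIT1 (2.01-fold, 1.80 to 2.23), and the lower ones were CMPK2 (0.463), DTX3L (0.467) and OAS3 (0.493). In HCT116, 2 of 41 were higher (10.7%) and 13 lower (25.7%). IFI35, which binds other interferon-induced proteins, was at 0.201 of its untreated level (0.160 to 0.251), CMPK2 at 0.0505 (0.0101 to 0.155) from 56 to 3 counts, and EPSTI1 at 0.189 (0.0564 to 0.502), while ISG20, an RNA exonuclease, was 2.28-fold higher (1.91 to 2.74). The median of all genes in this pair was -0.364 on the log2 scale of CPM, and with TMM scaling, which set it to -0.01, 4 genes were higher and 8 lower, against 15.9% and 16.5% of all genes.

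**Figure D4:**
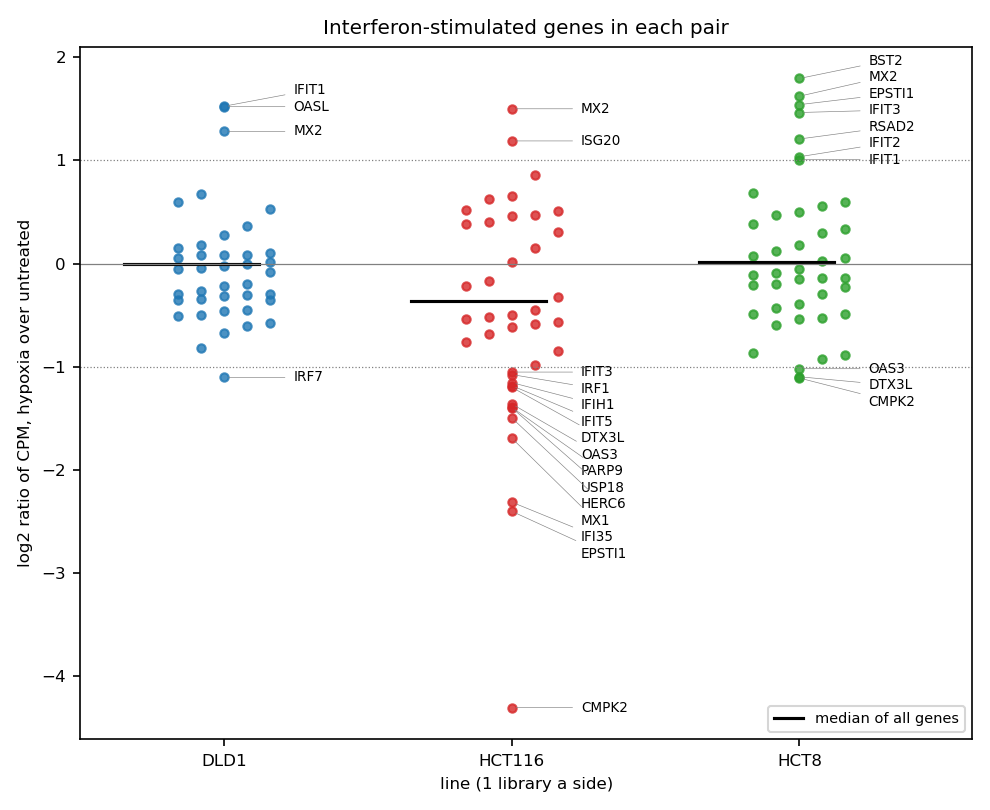
Log2 ratio of CPM, hypoxia over untreated, in the pair of each CRC line (1 library a side), for the genes past the filter and above the floor in either library, with dotted lines at 2-fold, names beyond them and a black bar for the median of all genes. HCT116 has 13 genes under the lower line, beside a median of all genes at -0.364, and HCT8 has 7 above the upper line.

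Last, CRC and normal lines were compared without treatment, the contrast named in the title of the series. None of 42 tested genes passed (0 of 42, and 0.0% of all 19964 genes, at an edgeR adjusted p-value under 0.05). At an unadjusted p-value under 0.05 there were 4 genes (BST2, IFI44, IFIT2 and OASL), against 2.71% of all genes, and DESeq2 called 2, BST2 and OASL, both lower in CRC, against 0.656% of all genes. The median log2 fold change was 0.02. Without NCM460 it was -0.19, with 0 genes called and 9 of 42 at an unadjusted p-value under 0.05 in edgeR's test, against 15.8% of all genes. That fit holds HIEC6 alone on the normal side, which is assumed to vary like the CRC lines. The 2 normal lines were far apart in the interferon genes, so each was set against the range of the CRC lines, as a description with no test.

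HIEC6 was more than 2-fold above the highest untreated CRC line for 8 of 42 genes (5.44% of all genes) and more than 2-fold below the lowest for 4 (16.6%). BST2, at 224 CPM in HIEC6, was at 0.0195 CPM in DLD1, 1.68 in HCT116, 0.114 in HCT8 and 0.915 in NCM460, 133-fold above the highest CRC value (interval 108 to 166). OASL was at 36.1 CPM in HIEC6, 18.7 in NCM460, 0.449 in DLD1, 1.42 in HCT116 and 1.98 in HCT8. Of these genes, OASL alone was more than 2-fold above the CRC range in both normal lines. The IFIT genes, which share a cluster on chromosome 10 from 91043451 to 91181362 (GRCh37), were split. IFIT2 was at 32.8 CPM in HIEC6 and between 1.15 and 1.97 in the other untreated lines, and IFIT3 at 15.8 against 0.366 to 2.03. IFIT1 was at 29.9 CPM in HIEC6, 2.91 in NCM460, 2.01 in DLD1, 3.73 in HCT116 and 10.5 in HCT8. IFIT5, in the same cluster, lay between 24 and 31.8 CPM in all 5 untreated lines. IFI35 (28.4 CPM in HIEC6, at most 8.69 in the CRC lines), IFI44 (2.72, at most 0.287) and SAMD9L (0.670, at most 0.209) completed the genes above the range. Under hypoxia all 8 of these genes were also below their HIEC6 level in every CRC line. In DLD1, HCT116 and HCT8, BST2 was at 0.0174, 1.14 and 0.395 CPM, and OASL at 1.29, 1.75 and 2.90. IFIT1 was at 5.79, 3.32 and 21.1, IFIT2 at 1.66, 1.37 and 3.19, and IFIT3 at 1.48, 0.415 and 2.31. IFI35 was at 1.32, 1.75 and 2.46, IFI44 at 0.157, 0.162 and 0.110, and SAMD9L at 0.0523, 0.0361 and 0.264. BST2 in DLD1 and SAMD9L in DLD1 and HCT116 were at or under the floor. IFI44L, next to IFI44 on chromosome 1, held 97 counts in HIEC6 and at most 3 in any other library.

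On the other side, CMPK2 and EPSTI1 were at 0 counts in HIEC6, at least 20.3-fold and 9.05-fold lower than in HCT116, the lowest CRC line (3 counts in HIEC6 taken as the floor). IRF7 was at 0.276 (interval 0.132 to 0.537) and IFIH1 at 0.433 (0.363 to 0.515) of the lowest CRC line. HIEC6 thus held high levels of 3 IFIT genes and BST2 beside a low level of MDA5, against the untreated CRC lines. Under hypoxia IFIH1 was at 18.9 CPM in DLD1, 3.75 in HCT116 and 4.28 in HCT8, against 3.39 in HIEC6. CMPK2 held 147, 3 and 90 counts in these libraries, EPSTI1 62, 5 and 93, and IRF7 37, 55 and 55. Low levels of IFIH1, CMPK2 and EPSTI1 were thus not particular to HIEC6. NCM460 was more than 2-fold above the range for OASL (1 of 42, 2.26% of all genes) and more than 2-fold below it for IRF7 and IFIT3 (2 of 42, 3.6%). HIEC6 was also the library with almost no EPCAM and with abundant VIM, and the part of that difference in these values was not tested.

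**Figure D5:**
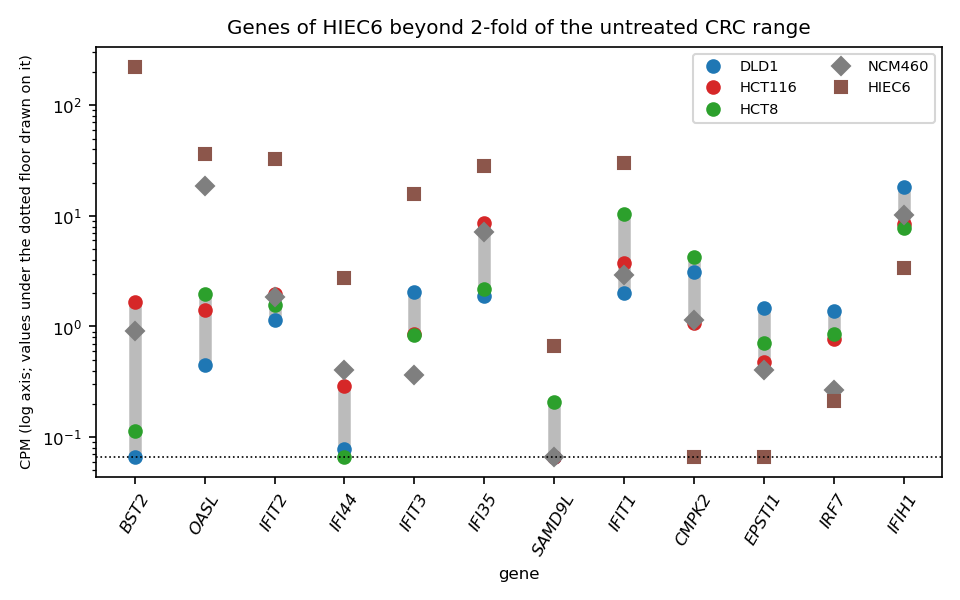
CPM on a log axis of the 12 genes for which HIEC6 lay more than 2-fold outside the range of the untreated CRC lines (grey bars with 1 dot per line), with HIEC6 as squares and NCM460 as diamonds, and values under the floor of 3 counts drawn on the dotted line. HIEC6 lies above the bars for 8 genes, led by BST2 at 224 CPM, and below them for CMPK2, EPSTI1, IRF7 and IFIH1.

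XAF1, a proapoptotic protein, held at most 5 counts outside HCT8, where it was at 0.703 and 0.659 CPM, and LGALS3BP lay between 278 and 456 CPM in all 8 libraries. In the line comparison, of 22 tested genes with the ISRE letters in their promoter, 9 were lower and 4 higher in HCT116. Their median log2 fold change was -0.70. Of 13 without them 5 were lower and 0 higher, with a median of -0.68. Of all genes tested, 14.4% were lower and 18.4% higher. Only this exact spacing of the letters was searched, so genes without a match may hold other forms of the element.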

How the data were processed

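RNA-seq of 8 libraries (5 untreated lines, 3 CRC lines under hypoxia) was analysed from the deposited table of raw read counts per gene, of which all 8 columns were used. The study's methods state that the authors removed ribosomal RNA and aligned clean reads to GRCh37.p13, whereas the submitters' processing notes name HISAT2 2.0.4 and GRCh38. The counter, the use of strand and the treatment of reads with several matches are not given in the sources used here, and these decide how overlapping genes and paralogs were counted. Columns were assigned to lines by the sample labels.

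A gene was tested where 2 or more libraries of a fit held 10 counts or more, with edgeR 4.0.16 in R 4.3.3 (glmQLFit and glmQLFTest, TMM, Benjamini-Hochberg over all genes tested, threshold 0.05), for hypoxia, for CRC against normal, and for line with treatment as a covariate. SEs were derived from the fold change and the F value. For hypoxia the replicate number marks the line and so pairs the samples, and deviations of same-line libraries correlated at 0.82 to 0.857 against -0.611 to -0.0599 between lines. CPM used column totals, ratios of 2 libraries have exact binomial intervals (Clopper-Pearson, SciPy 1.17.1), and the floor was 3 counts. Alternatives were DESeq2 1.42.0, upper-quartile normalization, other filters, other models, a pseudocount of 0.1 and each library left out. The edgeR procedure was tested on simulated counts with a smaller spread than that of the fits. That test therefore does not show which changes the fits would miss in these data.

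The interferon genes and the pathway lists were chosen with earlier results of these data known. Values by library are given for up to 10 genes past the threshold per comparison, filled up to 8 by the smallest p-values where fewer passed, and for the receptors, factors, ISG15, IFITM genes and IFI27; further genes were named after their values were seen. Positions are from GENCODE release 44 lifted to GRCh37 (44 of 45 genes), and promoters from RefSeq. A gene of the pathway lists and a gene of the marker lists are not reported here.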

Additional observations from a re-analysis of the deposited data

Results flagged for a closer look

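For a pair of genes, hypoxia and untreated libraries differed in opposite directions in HCT8 and HCT116, in each case by more than 2-fold. IFIT3 was 2.76-fold higher under hypoxia in HCT8 (44 to 105 counts) and at 0.482 of its untreated level in HCT116 (45 to 23 counts). EPSTI1 was 2.91-fold higher in HCT8 (37 to 93 counts) and at 0.189 in HCT116 (25 to 5 counts). With 1 library per line and treatment the difference between the lines was not tested, and with TMM scaling IFIT3 in HCT116 was no longer beyond 2-fold.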

How the results depend on the processing

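For hypoxia without the block, 0 genes were called with edgeR. DESeq2 called 51, the line block 200, the block with DESeq2 1666, the block with upper-quartile normalization 215, and the block without 1 pair 6 to 738 (6 without HCT8, 292 without DLD1, 738 without HCT116). Of the interferon genes 2 were called by DESeq2 with the block and 0 to 2 with the block and 1 pair left out, and the replicate block changed no other call. Fits that join the block with DESeq2, upper-quartile scaling or a left-out pair were chosen after seeing the data. The median over the interferon genes, -0.02, was 0.04 with upper-quartile scaling, -0.06 with the block, -0.17 to -0.01 with the block and 1 pair left out (-0.08 without HCT116), and -0.16 to 0.26 with 1 library left out (0.26 without untreated DLD1, 0.23 without HCT116 under hypoxia), so its sign is not settled. For CRC against normal, DESeq2 called 131 genes, 2 of them interferon genes, with a median of -0.02, and leaving out 1 library gave 0 calls and medians of -0.19 to 0.39 (-0.19 without NCM460, -0.18 without DLD1). Replicate numbers of these groups mark different lines, so no pairing applies. In the line comparison, 10 counts required in every library left 4601 genes called and a median of -0.48, no treatment term left 12 interferon genes, and leaving out 1 library gave 4337 to 7575 genes, 13 to 24 interferon genes and medians of -0.79 to -0.51. With a pseudocount of 0.1 the mean level was 3.19 in HIEC6, 3.03 and 3.02 in DLD1, and 2.92 and 2.97 in HCT8. It was 2.28 in NCM460, and 2.24 and 1.79 in HCT116. The cause of these shifts was not tested. With 1 library per line and treatment, a difference between lines includes any difference between cultures, and genes near 3 counts cannot be compared.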
